A study of Caenorhabditis elegans with 3 samples.

Results

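The col genes of Caenorhabditis elegans are the numbered collagen genes of the worm, most of which encode proteins of the cuticle. They were taken as every gene whose name in both deposited gene tables was col- followed by a number, which gave 159 of 46135 genes. Collagens of the same superfamily that carry a mutant phenotype name (dpy, rol, sqt, bli, lon and ram genes) are not chosen by that rule and were kept as a separate list. Of the 159 members, 155 were above 0 FPKM in all 3 libraries and 4 were listed at 0 in at least 1. FPKM divides the fragments of a gene by its transcript length and by the depth of the library. A further 31 members were above 0 in every library but had a mean FPKM under 1, which left 124 for ratios.

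The cuticle is the extracellular coat of the worm, secreted by the epidermis and replaced at each larval moult. Its collagens are short secreted proteins with Gly-X-Y repeats that form triple helices, are cut and hydroxylated in the secretory pathway and are cross-linked outside the cell. Their genes are transcribed in waves tied to the moulting cycle, and some are specific to 1 stage, such as the dauer larva, the L4 or the adult. One member, col-99, is an exception in kind, since it encodes a transmembrane collagen with a role in axon guidance and not a cuticle protein.

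Messenger RNA was measured in whole wild-type N2 larvae at the L4 stage, with poly(A) selection and paired reads of 73 bp. Synchronised L1 larvae were fed for 36 hours on bacteria carrying an RNAi clone against ham-3, swsn-2.2 or gfp, the last a control sequence that worms lack, with 1 library per group. HAM-3 and SWSN-2.2 are related versions of an accessory subunit in SWI/SNF chromatin remodelling complexes. Growth was at 25 °C by the series design but at 35 °C by the protocol in the labels, and which holds is uncertain. The gene ham-3 was at 23.1 FPKM in the library labelled as ham-3(RNAi), 31.5 in swsn-2.2(RNAi) larvae and 19.3 in gfp(RNAi) larvae. That library is called by its label throughout, because its ham-3 level was not below the control. The gene swsn-2.2 was listed at 0 in its own library, at 37.8 FPKM in the library labelled as ham-3(RNAi) and at 19.3 in gfp(RNAi) larvae. An exact 0 can be a failed estimate in data of this kind, so it does not show the knockdown of swsn-2.2. The name swsn-2.2(RNAi) larvae therefore follows the label too. The depth inferred from the spacing of low FPKM values was about 30700000 fragments in the library labelled as ham-3(RNAi) and in that of swsn-2.2(RNAi) larvae, against 19600000 for gfp(RNAi). With no replicate libraries, the ratios below compare libraries and carry no error between cultures. The 95% counting intervals are given on the log2 scale for the plain FPKM ratio of members with 1 transcript. They cover counting error only and are approximate, because only 60.3% to 61.4% of low values came out as whole fragments within a tolerance of 0.1.

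The col genes were among the most abundant messages of these larvae. Summed over the 155 members above 0 in every library, FPKM was 65049 in the library labelled as ham-3(RNAi) and 76743 in swsn-2.2(RNAi) larvae, against 78323 in gfp(RNAi) larvae. These sums were 6.14%, 6.99% and 7.28% of all FPKM in the same order. Among the 500 genes with the highest FPKM of each library, 55, 56 and 57 were col genes. Over 1000 FPKM stood 23 members in the library labelled as ham-3(RNAi), 30 in swsn-2.2(RNAi) larvae and 31 in gfp(RNAi) larvae. At the other end, 35, 32 and 34 members were above 0 but at or under 1 FPKM. The family therefore spanned about as wide a range of levels in each library, and the 10 members with the highest mean held 35.7%, 35.3% and 35.4% of its summed FPKM.

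Highest of all was col-13, at 4448 FPKM in the library labelled as ham-3(RNAi) and 5658 in swsn-2.2(RNAi) larvae, against 5111 in gfp(RNAi) larvae. It lies beside col-12 on chromosome V, the other gene of a pair with closely similar coding sequence, which stood at 654, 765 and 750.3 FPKM, so that reads may be shared between them. Next came col-117 (3207, 3735 and 4056 FPKM), col-92 (3145, 3647 and 3529) and col-124 (2471, 3589.9 and 2855). The library labelled as ham-3(RNAi) was the lowest of the 3 for each of these 5 genes. The gene col-73 had its highest value there, at 2262 FPKM, against 1971 in swsn-2.2(RNAi) larvae and 2218 in gfp(RNAi) larvae. Completing the 10 were col-144, col-161, col-81, col-138 and col-181.

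**Figure D1:**
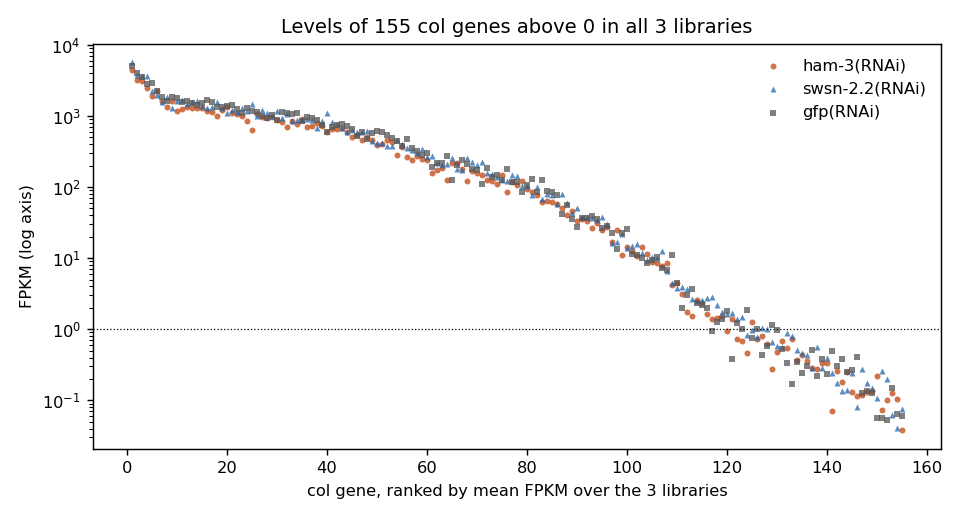
FPKM of the 155 col genes above 0 in all 3 libraries (y axis, log scale) by their rank in mean FPKM (x axis), with circles for the library labelled as ham-3(RNAi), triangles for swsn-2.2(RNAi) and squares for gfp(RNAi). Levels run from 5658 FPKM (col-13) to under 0.1 FPKM, and below 1 FPKM (dotted line) the 3 libraries scatter most on this log axis.

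Beyond their name, the members shared a compact gene structure. By the WBcel235 annotation, 156 were protein coding and 3 were pseudogenes (col-66, col-136 and col-182). The median coding length was 912 bp, with 855 to 1128 bp between the 10th and 90th percentiles. Of the members, 76 had 2 exons, 30 had 3, 23 had 4, 17 had 5 or more and 13 had a single exon. Chromosome IV held 42 of them, V 30, X 28, II 25, I 22 and III 12. In the files, 139 members had 1 transcript. Exonic bases were shared with another annotated gene in 52 members, over 100 bases in 24 of them, and reads from such stretches cannot be assigned to one gene unless strand was used, which the sources used here do not give.

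Only 1 of the 4 members listed at 0 in a library was abundant elsewhere. The gene col-166 (T07H6.3; chromosome X, 6279675 to 6281019, plus strand) was at 713 FPKM in the library labelled as ham-3(RNAi) and at an exact 0 in swsn-2.2(RNAi) and gfp(RNAi) larvae alike. Its FPKM was spread over 4 transcripts, at 158, 240.0, 272 and 42.9 FPKM, and it has no test in the authors' deposited table. An exact 0 for a gene of this level can be a failed estimate in such tables: of 1774 genes that reached 100 FPKM in some library, 40 (2.25%) were listed at 0 in another. No fold is given for col-166, and its part in the sum of the library labelled as ham-3(RNAi) was left out above. Elsewhere, col-55 was at 0.0698 FPKM in the library labelled as ham-3(RNAi) and at an exact 0 in the others. In reverse, col-78 and col-164 were listed at 0 in that library. They stood at 0.0960 and 0.173 FPKM in swsn-2.2(RNAi) larvae and at 0.0754 and 0.138 in gfp(RNAi) larvae, levels of a few fragments at most.

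Set against gfp(RNAi), the col genes lay below the control in the library labelled as ham-3(RNAi). Of 124 members, 95 had a log2 ratio of FPKM + 1 below 0 and 29 above, where 44.1% of the 14154 genes tested were below 0. The median ratio was -0.20, against 0.03 over all genes. At 1.5-fold, 17 members (13.7%) were lower, beside 2.8% of all genes, and 3 (2.42%) were higher, beside 1.65% of all genes. The summed FPKM of the 155 members differed from the control by -0.27 on the log2 scale and that of all other genes above 0 in the 3 libraries by -0.01. The RNA came from whole larvae, so fewer cuticle-secreting cells and less collagen RNA per cell cannot be told apart.

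The 17 lower members came from every class of level. They were 3 of 27 members with a mean above 1000 FPKM and 7 of 53 between 100 and 1000. They were also 4 of 23 between 10 and 100 and 3 of 21 between 1 and 10. Of all genes in these classes, 5 of 171, 37 of 1429, 135 of 7441 and 219 of 5113 were lower. The gene furthest below the control was col-70 (H17B01.2; chromosome II, 1470040 to 1472260, plus strand). It was at 4.20 FPKM in the library labelled as ham-3(RNAi) and 4.51 in swsn-2.2(RNAi) larvae, against 10.9 in gfp(RNAi) larvae. Its log2 ratio of FPKM + 1 was -1.20 in the library labelled as ham-3(RNAi), with a counting interval of -1.67 to -1.09 for the plain ratio. Both values were thus low and close to each other. The reference annotation gives this gene no col name, so its place in the family rests on the files.

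Abundant members were also lower. The gene col-156 was at 127 FPKM in the library labelled as ham-3(RNAi) and 208 in swsn-2.2(RNAi) larvae, against 269 in gfp(RNAi) larvae, a log2 ratio of -1.08 (-1.15 to -1.02) in the library labelled as ham-3(RNAi). It shares 31 exonic bases with the protease gene mig-17. The gene col-65 was at 264 and 350.2 FPKM in the same 2 libraries, against 469.9 in gfp(RNAi) larvae, with log2 ratios of -0.83 (-0.88 to -0.78) and -0.42 (-0.47 to -0.38). In both genes the 3 libraries were ordered alike, with gfp(RNAi) highest and the library labelled as ham-3(RNAi) lowest. The fifth most abundant member, col-144, followed the same order, at 1891 FPKM and 2229.9 FPKM against 2941 in gfp(RNAi) larvae, a log2 ratio of -0.64 (-0.66 to -0.62) in the library labelled as ham-3(RNAi).

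Other members were lower in the library labelled as ham-3(RNAi) and not in swsn-2.2(RNAi) larvae. The gene col-178 (chromosome X, 11199455 to 11200464, plus strand) was at 643 FPKM in the library labelled as ham-3(RNAi), 1493 in swsn-2.2(RNAi) larvae and 1189 in gfp(RNAi) larvae. Its log2 ratio to the control was -0.88 (-0.92 to -0.86) in the first and 0.33 (0.30 to 0.35) in the second. The gene col-68 (chromosome II, 104534 to 105819, plus strand) was at 11.1 and 21.6 FPKM, against 22.7 in gfp(RNAi) larvae, with log2 ratios of -0.98 (-1.25 to -0.83) and -0.07 (-0.26 to 0.10). On chromosome V, col-150 was at 123 and 256 FPKM, against 213 in gfp(RNAi) larvae, with ratios of -0.78 (-0.86 to -0.72) and 0.26 (0.20 to 0.32). Likewise, col-157 was at 285 and 466 FPKM, against 440.0 in gfp(RNAi) larvae, with ratios of -0.62 (-0.67 to -0.58) and 0.08 (0.04 to 0.13).

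The remaining lower members were col-168, col-169, col-170, col-176 and col-180 on the X chromosome, col-106, col-122, and the weakly expressed col-105 and pseudogene col-66. Just inside the 1.5-fold line stood col-122 (854 against 1291 FPKM in gfp(RNAi), log2 ratio -0.60) and col-170 (-0.61). Just outside it stood col-3 and col-181, both at -0.57.

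The 3 members at least 1.5-fold higher in the library labelled as ham-3(RNAi) differed in level. The gene col-135 was at 24.9 FPKM in that library and 17.02 in swsn-2.2(RNAi) larvae, against 13.4 in gfp(RNAi) larvae, with log2 ratios of 0.85 and 0.32. The gene col-179 (chromosome X, 11201523 to 11202488, plus strand) was at 221 and 255 FPKM, against 126 in gfp(RNAi) larvae, with ratios of 0.80 (0.73 to 0.88) and 1.01 (0.95 to 1.09). It shares 10 exonic bases with C34F6.11, a gene at 10.7, 14.2 and 9.81 FPKM in the 3 libraries. The last, col-158, was at only 1.40 and 1.72 FPKM, against 0.385 in gfp(RNAi) larvae. It shares 149 exonic bases with D2023.15, listed at 0.624, 0 and 0 FPKM in the 3 libraries. It also shares 23 with nphp-4, at 1.08, 1.27 and 1.38 FPKM. Nearest below the line were col-110 (123 and 103 FPKM, against 85.3, log2 ratio 0.52 in the library labelled as ham-3(RNAi)) and col-148 (0.48). Further members among the largest ratios were col-41 (14.1 and 11.6 FPKM, against 10.2, log2 ratio 0.44), col-76 (45.8 and 43.7 FPKM, against 35.1, 0.37) and col-128 (11.3 and 9.44 FPKM, against 8.52, 0.37).

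The authors' deposited lists, made from the same libraries, leaned the same way for the library labelled as ham-3(RNAi). With a Cuffdiff p-value under 0.01, which compares the 2 libraries and not the conditions, they hold 36 of 150 col genes tested as lower (24%), beside 3.28% of all genes tested. They hold 5 (3.33%) as higher, beside 1.55%. By the q-values of the authors' deposited lists, 26 of the lower and 3 of the higher members were under 0.05, and the largest q among the listed members was 0.149. In the authors' deposited lists, the smallest q belonged to col-156 (3.48e-14), col-168 (4.35e-13) and col-169 (8.71e-12). Among members at least 1.5-fold lower, col-106 has no test in the authors' deposited table (691 FPKM in the library labelled as ham-3(RNAi) and 1058 in swsn-2.2(RNAi) larvae, against 1084 in gfp(RNAi) larvae). In all, 9 members had no test in at least 1 comparison, of which 7 were above 0 in all 3 libraries.

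Against gfp(RNAi), the library of swsn-2.2(RNAi) larvae had as many col genes above the control as below when no scaling was applied. Of 124 members, 62 had a ratio below 0 and 62 above, where 34.2% of all genes were below 0 and 65.8% above. The median was -0.0026, against 0.08 over all genes. At 1.5-fold, 5 members (4.03%) were lower, beside 1.4% of all genes, and 9 (7.26%) were higher, beside 2.31% of all genes. That split depended on scaling. Centring ratios on the median gene gave 8 lower and 9 higher, and scaling libraries to their upper quartile gave 9 and 9. Of all genes, 2.18% were lower and 1.58% higher when centred, and 2.17% and 1.58% when scaled. Under the same scalings 71 and 73 of the 124 members had a ratio below 0, while the median of all genes was 0 and -0.0069. The summed FPKM of the 155 members differed from the control by -0.03 on the log2 scale.

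Those higher in swsn-2.2(RNAi) larvae included both abundant and scarce collagens. The gene col-119 was at 592 FPKM in the library labelled as ham-3(RNAi), 1104 in swsn-2.2(RNAi) larvae and 591 in gfp(RNAi) larvae, with log2 ratios to the control of 0.0027 (-0.04 to 0.04) and 0.90 (0.87 to 0.94). The gene col-101 was at 51.3 and 79.6 FPKM, against 41.96 in gfp(RNAi) larvae, with ratios of 0.28 (0.18 to 0.40) and 0.91 (0.82 to 1.03). In both, swsn-2.2(RNAi) larvae had the highest value of the 3. The gene col-149 was at 145 and 222 FPKM, against 112 in gfp(RNAi) larvae, with a ratio of 0.99 (0.92 to 1.07) in swsn-2.2(RNAi) larvae. It shares 18 exonic bases with a gene near 1 FPKM.

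Less abundant were col-143 (chromosome V, 6835635 to 6836700, plus strand; 33.5 and 50.8 FPKM, against 27.7 in gfp(RNAi) larvae) and col-95 (chromosome III, 11703979 to 11705085, plus strand; 7.69 and 12.8 FPKM, against 7.29). Their log2 ratios in swsn-2.2(RNAi) larvae were 0.86 (0.73 to 1.03) and 0.73 (0.51 to 1.11). The other higher members were col-179 and the weakly expressed col-123, col-148 and col-158. Just outside the line stood col-8, at 275 FPKM in swsn-2.2(RNAi) larvae against 192 in gfp(RNAi) larvae (0.52), and col-54 (0.50). The 5 lower members were col-70, col-169, col-176, col-170 and the weakly expressed col-105. The gene col-176 (chromosome X, 10077613 to 10078738, plus strand) was at 14.3 FPKM in the library labelled as ham-3(RNAi) and 13.8 in swsn-2.2(RNAi) larvae, against 25.9 in gfp(RNAi) larvae. Its ratios were -0.82 (-1.06 to -0.67) and -0.86 (-1.11 to -0.71), so that both values were about equally low. Outside the 1.5-fold line were col-168 (-0.54), col-180 (-0.55), col-107 (-0.54; 408 FPKM in the library labelled as ham-3(RNAi) and 414 in swsn-2.2(RNAi) larvae, against 602 in gfp(RNAi) larvae) and col-48 (-0.50; 455 and 379 FPKM, against 536). The authors' deposited lists hold col-168 and col-180 as lower in swsn-2.2(RNAi) larvae, with q of 0.00187 and 0.00235.

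For the library of swsn-2.2(RNAi) larvae, the authors' deposited lists hold 17 of 151 col genes tested as lower (11.3%), beside 2.08% of all genes tested, and 15 (9.93%) as higher, beside 3.46%. By their q-values, 10 of each direction were under 0.05 in the authors' deposited lists, and the largest q among the listed members was 0.142. The smallest q among the higher members in the authors' deposited lists belonged to col-179 (3.30e-12), and the smallest among the lower to col-70 (5.56e-10). Both comparisons use the same gfp(RNAi) library, so an error of that library enters both.

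Set directly against the library of swsn-2.2(RNAi) larvae, the library labelled as ham-3(RNAi) again held the lower values. Of 124 members, 98 had a ratio below 0 and 26 above, where 60.2% of all genes were below 0 and 39.8% above, and the median was -0.23, against -0.05 over all genes. At 1.5-fold, 16 members (12.9%) were lower, beside 3.38% of all genes, and 0 were higher, beside 1.41%. Centred on the median gene the counts were 10 lower and 0 higher, and scaled to the upper quartile 10 lower and 1 higher. Of all genes, 2.73% were lower and 1.79% higher when centred, and 2.44% and 1.94% when scaled. The member nearest the higher line was col-135, with a log2 ratio of 0.52, followed by col-46 at 0.35 and col-138 at 0.29 (0.27 to 0.31). Also above 0 were col-90 at 0.27 (215 against 179 FPKM, with 202 in gfp(RNAi) larvae), col-48 and col-41 at 0.26, and col-77 at 0.24 (1314 against 1112 FPKM, with 1388 in gfp(RNAi) larvae). The furthest apart were col-178 at -1.21 (-1.24 to -1.19), col-150 at -1.05 (-1.11 to -0.99), col-68 at -0.90 (-1.16 to -0.77) and col-119 at -0.90 (-0.93 to -0.87). Next were col-8 (-0.78), the weakly expressed col-43 (-0.76), col-156 and col-157 (both near -0.7), col-123 and col-95. The last inside the line were col-54 (-0.60) and col-143 (-0.59), and the first outside were col-44 (-0.57) and col-152 (-0.56).

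By the order of the 3 libraries, the one labelled ham-3(RNAi) was lowest for 81 of 124 members (65.3%), beside 35% of all genes, and highest for 12 (9.68%), beside 30.7%. The swsn-2.2(RNAi) library was highest for 54 members (43.5%), beside 47.6% of all genes, and lowest for 18 (14.5%), beside 21.5%. The gfp(RNAi) library was highest for 58 members (46.8%), beside 21.7% of all genes, and lowest for 25 (20.2%), beside 43.5%.

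**Figure D2:**
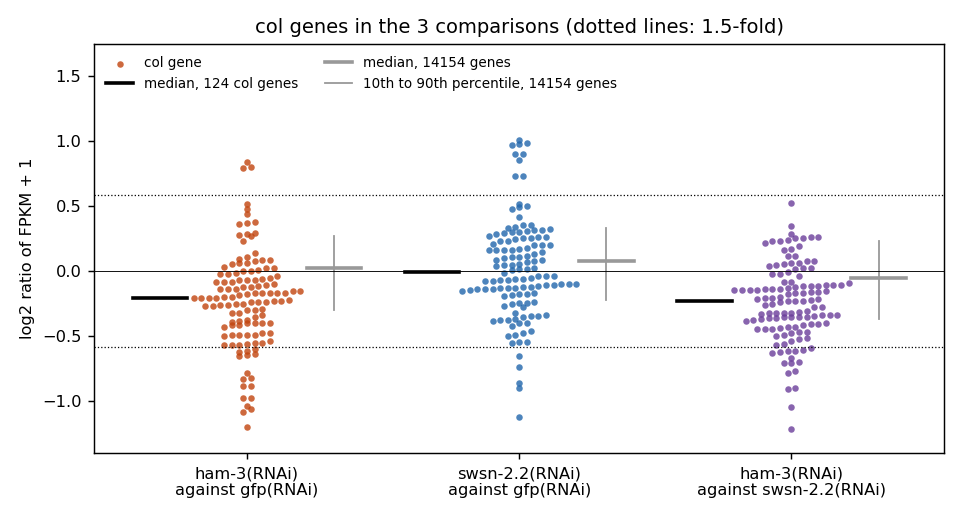
Log2 ratio of FPKM + 1 (y axis) of 124 col genes, 1 point each, in 3 comparisons of libraries, with a black bar for their median and grey bars for the median and the 10th to 90th percentiles of 14154 genes. The medians of the col genes are -0.20 for the library labelled as ham-3(RNAi) against gfp(RNAi), -0.0026 for swsn-2.2(RNAi) against gfp(RNAi) and -0.23 for the library labelled as ham-3(RNAi) against swsn-2.2(RNAi), and dotted lines mark 1.5-fold.

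The position of the col genes below the control was most frequent among abundant members. In the library labelled as ham-3(RNAi) against gfp(RNAi), 26 of 27 members with a mean above 1000 FPKM had a ratio below 0. Their median was -0.23. Of all 171 genes of that level, 112 were below 0, with a median of -0.04. The median was -0.22 over 53 members between 100 and 1000 FPKM, where all genes had -0.0089, and -0.12 over 23 between 10 and 100, where all genes had 0.04. It was 0.0040 over 21 members between 1 and 10 FPKM, beside 0.02 for all genes. In the library of swsn-2.2(RNAi) larvae the same classes, from the highest to the lowest level, had medians of -0.12, -0.03, 0.05 and 0.13, beside -0.04, 0.05, 0.09 and 0.06 over all genes.

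By chromosome, the members on X lay furthest below gfp(RNAi) in the library labelled as ham-3(RNAi). Their median was -0.49 over 21 genes, with 18 below 0, 6 at least 1.5-fold lower and 1 higher. All 1904 X genes had a median of 0.0044, with 934 below 0, 65 lower and 41 higher. Medians of the col genes were -0.28 on III, -0.21 on IV, -0.20 on V, -0.10 on I and -0.08 on II, where all genes of each chromosome lay between 0.0075 and 0.04. In the library of swsn-2.2(RNAi) larvae, the X members had a median of -0.11, with 3 lower and 1 higher. All X genes there had a median of 0.04, with 33 lower and 55 higher. The difference between chromosomes was not tested, and 4 of the 21 X members (col-167 to col-170) lie in 1 run of neighbours.

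**Figure D3:**
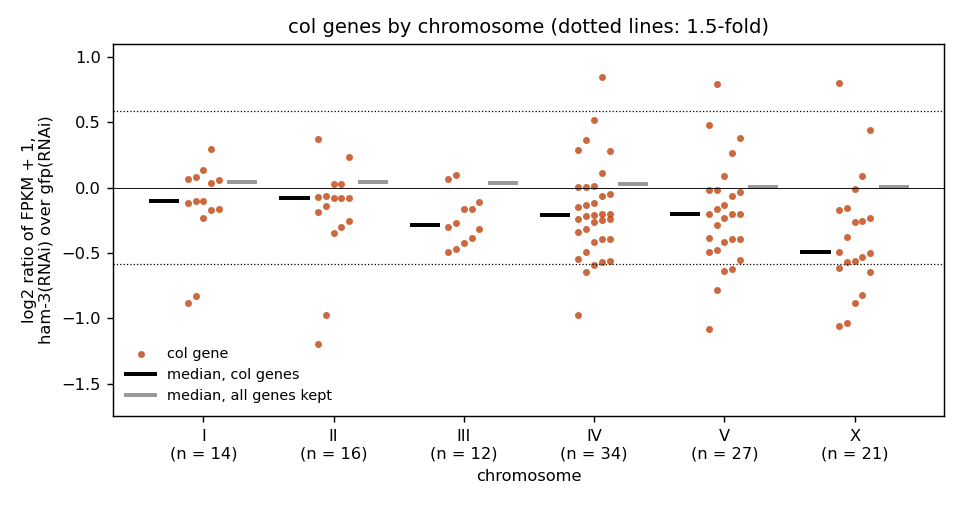
Log2 ratio of FPKM + 1 between the library labelled as ham-3(RNAi) and gfp(RNAi) (y axis) for col genes on each chromosome (x axis), 1 point per gene, with black bars for their median and grey bars for the median of all genes kept there. The X members have the lowest median, -0.49 over 21 genes, and dotted lines mark 1.5-fold.

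Many col genes sit beside another. With a gap of at most 5 kb, 50 members (31.4%) fell into 21 runs, 15 of them pairs, 5 of 3 genes and 1 of 5 genes. The longest, on chromosome X, held col-167, col-168, col-169, col-170 and col-171, all on the plus strand between 6323297 and 6335221 in the files' coordinates, whose build the sources used here do not name. The first of these was at 773 FPKM in the library labelled as ham-3(RNAi) and 864 in swsn-2.2(RNAi) larvae, against 1092 in gfp(RNAi) larvae. Its neighbour col-168 was at 85.4 and 122 FPKM, against 178.5, with log2 ratios of -1.06 (-1.15 to -0.98) and -0.54 (-0.62 to -0.47). The gene col-169 was at 60.6 and 67.0 FPKM, against 126, with ratios of -1.04 (-1.15 to -0.95) and -0.90 (-1.01 to -0.81). All 5 genes of the run were lower in both of these libraries than in gfp(RNAi) larvae. The gene col-170 was at 84.4 and 77.5 FPKM, against 129.5, with ratios of -0.61 (-0.71 to -0.53) and -0.73 (-0.83 to -0.65). The last, col-171, was near the limit of detection at 0.115 and 0.0813 FPKM, against 0.401.

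Other neighbours parted. The genes col-178 and col-179 lie about 1 kb apart on the same strand of chromosome X. In the library labelled as ham-3(RNAi), col-178 was lower than gfp(RNAi) (643 against 1189 FPKM) and col-179 higher (221 against 126 FPKM). On chromosome V, col-150 was lower in that library (123 against 213 FPKM), while its neighbour col-149 was above the control (145 against 112 FPKM, log2 ratio 0.38, short of 1.5-fold). In the library of swsn-2.2(RNAi) larvae both genes of each pair were above gfp(RNAi). A run of 3 on chromosome V had col-141, col-142 and col-143 at ratios of 0.48, 0.31 and 0.86 in swsn-2.2(RNAi) larvae and -0.02, -0.07 and 0.27 in the library labelled as ham-3(RNAi). Another, col-144, col-145 and col-10, lay below the control in both other libraries. Of 17 runs with at least 2 members kept, all members lay on the same side of 0 in 10 runs for the library labelled as ham-3(RNAi) against gfp(RNAi). That number was 12 for swsn-2.2(RNAi) against gfp(RNAi) and 14 in the direct comparison. Most members lay below 0 in any case in the first and last comparison (95 and 98 of 124), against 62 in the second. Whether neighbours share a side more often than other members was not tested.

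**Figure D4:**
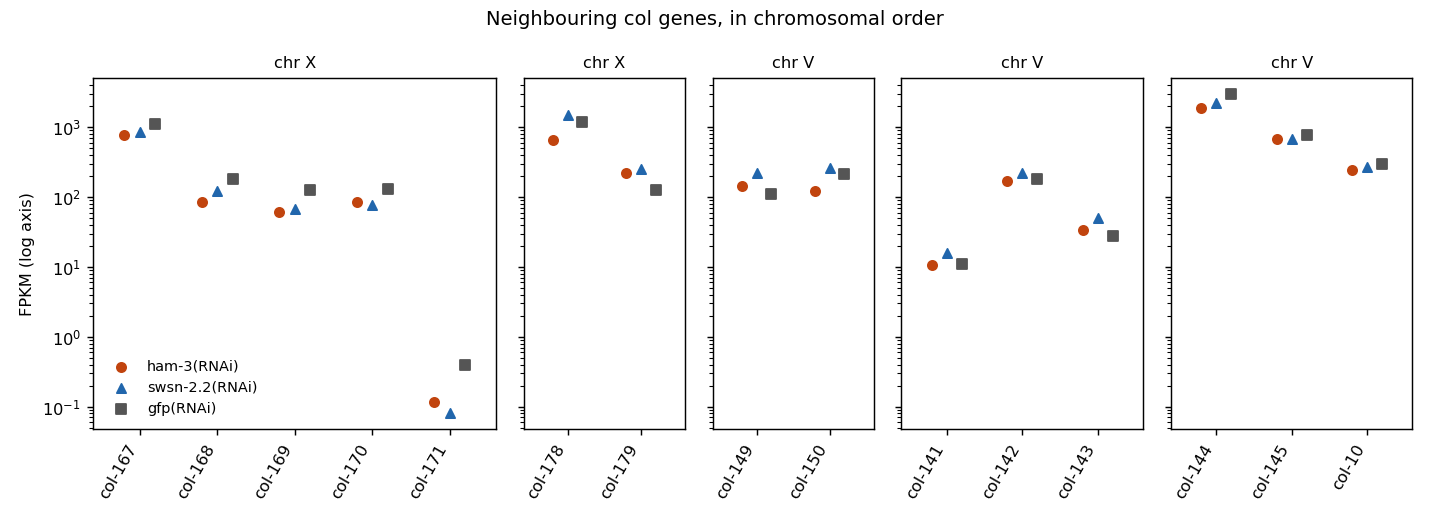
FPKM (y axis, log scale) of neighbouring col genes in chromosomal order (x axis) for 5 runs on chromosomes X and V, with circles for the library labelled as ham-3(RNAi), triangles for swsn-2.2(RNAi) and squares for gfp(RNAi), 1 library each. In the run of 5 the gfp(RNAi) square is the highest for each gene, while col-178 and col-179 lie on opposite sides of it in the library labelled as ham-3(RNAi).

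Members known to mark a stage were read beside the adult yolk genes. The adult collagens col-19 (chromosome X, 421707 to 422776, plus strand) and col-7 (chromosome I, 7401675 to 7402756, plus strand) are switched on at the moult from larva to adult. The gene col-19 was at 876 FPKM in the library labelled as ham-3(RNAi) and 1182 in swsn-2.2(RNAi) larvae, against 884 in gfp(RNAi) larvae, with log2 ratios of -0.01 (-0.04 to 0.02) and 0.42 (0.39 to 0.45). The gene col-7 was at 986 and 1312 FPKM, against 1103, with ratios of -0.16 (-0.18 to -0.14) and 0.25 (0.23 to 0.27). Both adult collagens were thus highest in swsn-2.2(RNAi) larvae, short of 1.5-fold, and the authors' deposited lists hold col-19 as higher there with a q of 0.0878.

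The L4 collagens col-38, col-49, col-63 and col-138, whose expression depends on the heterochronic factor LIN-29, were all near or above 860 FPKM in every library. The gene col-138 was at 1601 FPKM in the library labelled as ham-3(RNAi) and 1309 in swsn-2.2(RNAi) larvae, against 1836 in gfp(RNAi) larvae, with ratios of -0.20 (-0.22 to -0.17) and -0.49 (-0.51 to -0.46). The other 3 lay between -0.10 and 0.06 in the library labelled as ham-3(RNAi) and between -0.19 and 0.01 in swsn-2.2(RNAi) larvae. The dauer collagens were low, col-2 at 1.44 and 2.18 FPKM against 1.26 in gfp(RNAi) larvae, and col-40 at 0.541 and 0.883 FPKM against 0.340. All 6 vitellogenin genes, which encode yolk proteins of the adult intestine, were above gfp(RNAi) in both other libraries. Their summed FPKM was 1329 in the library labelled as ham-3(RNAi) and 1704 in swsn-2.2(RNAi) larvae, against 1004 in gfp(RNAi) larvae. The part of larval age in the col values was not tested.

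The transmembrane collagen gene col-99 was at 4.41 FPKM in the library labelled as ham-3(RNAi) and 3.80 in swsn-2.2(RNAi) larvae, against 4.40 in gfp(RNAi) larvae, with ratios of 0.0040 and -0.17. It shares 108 exonic bases with daf-1, a receptor gene with a higher level (9.72, 9.26 and 10.6 FPKM). Of the 3 pseudogenes, col-182 reached 94.6 and 104 FPKM, against 105, col-66 stood at 1.54 and 2.64, against 3.69, and col-136 stayed under 0.3 FPKM in every library.

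Other genes of the cuticle were counted beside the col genes, and no difference between lists was tested. The morphology collagens, named for the dumpy, roller, squat, blistered, long or ray-abnormal worms that their mutants give, had 19 of 22 genes kept, while dpy-7 and dpy-17 were listed at 0 in at least 1 library. Against gfp(RNAi), 12 were above 0 and 7 below in the library labelled as ham-3(RNAi) (median 0.11). In swsn-2.2(RNAi) larvae 3 were above and 16 below (median -0.24). Of all genes, 55.9% and 65.8% were above 0 in these 2 comparisons, with medians of 0.03 and 0.08. Between the library labelled as ham-3(RNAi) and the library of swsn-2.2(RNAi) larvae, 18 of 19 were above 0, with a median of 0.22. There the col genes had 26 of 124 above 0 and a median of -0.23, and all genes had 39.8% and -0.05. Summed over the 19, FPKM was 7808 in the library labelled as ham-3(RNAi) and 6770 in swsn-2.2(RNAi) larvae, against 8216 in gfp(RNAi) larvae. The 6 with the highest mean FPKM (bli-6, dpy-5, dpy-4, dpy-13, rol-1 and ram-2) all lay below gfp(RNAi) in both other libraries. Their ratios were between -0.53 and -0.03 in the library labelled as ham-3(RNAi). In that library, the next by mean FPKM (sqt-3, sqt-1, sqt-2, bli-2 and lon-3) lay above gfp(RNAi), at ratios between 0.10 and 0.32. None of the 19 reached 1.5-fold in any of the 3 comparisons. Across these, 1.4% to 3.38% of all genes were lower and 1.41% to 2.31% higher. The authors' deposited lists hold dpy-13 (q of 0.0163), rol-8 (0.104) and sqt-3 (0.106) as lower in swsn-2.2(RNAi) larvae. In the direct comparison the furthest was dpy-8, at 40.2 FPKM in the library labelled as ham-3(RNAi) against 27.1 in swsn-2.2(RNAi) larvae (log2 ratio 0.55). The gene sqt-3, a collagen required in embryo and larva, was at 566 against 421 FPKM (0.43), with 529 in gfp(RNAi) larvae. The gene on the other side of 0 was ram-2, at 545 against 582 FPKM (-0.09) with 787 in gfp(RNAi) larvae, which the authors' deposited lists hold as lower in both comparisons with gfp(RNAi).

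Enzymes that process collagen were mostly close to the control, with medians of 0.06 in the library labelled as ham-3(RNAi) and 0.11 in swsn-2.2(RNAi) larvae over 11 genes kept. The prolyl 4-hydroxylase gene dpy-18 was at 198 and 159 FPKM, against 174 in gfp(RNAi) larvae. The procollagen protease gene dpy-31 was at 27.9 and 36.8 FPKM, against 33.9. One enzyme gene of the 11 passed 1.5-fold in the direct comparison, on the lower side, where 3.38% of all genes were lower. This was mlt-7, which encodes a peroxidase of the cuticle, at 34.6 FPKM in the library labelled as ham-3(RNAi) and 71.9 in swsn-2.2(RNAi) larvae (log2 ratio -1.03), with 50.9 in gfp(RNAi) larvae. The authors' deposited lists hold it as lower in the first and higher in the second, each against gfp(RNAi). The dual oxidase gene bli-3, whose product supplies hydrogen peroxide for cross-links, was at 16.7 and 17.6 FPKM, against 14.8. The furin-like protease gene bli-4 was listed at 0 in all 3 libraries.

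Among other genes of the cuticle and the apical matrix, 9 of 14 were kept, with medians against gfp(RNAi) of 0.28 in the library labelled as ham-3(RNAi) and -0.07 in swsn-2.2(RNAi) larvae. At 1.5-fold against gfp(RNAi), 1 was higher (noah-2) and 1 lower (cut-2) in the library labelled as ham-3(RNAi), beside 1.65% and 2.8% of all genes. In swsn-2.2(RNAi) larvae 0 passed that line. In the direct comparison 3 were at least 1.5-fold higher and 0 lower, beside 1.41% and 3.38% of all genes. The 3 higher genes were noah-2 (54.7 against 34.1 FPKM, log2 ratio 0.66), noah-1 (44.2 against 27.8 FPKM, 0.65) and mlt-11 (18.6 against 11.9 FPKM, 0.61). Both noah genes are zona pellucida domain genes of the apical matrix, and mlt-11 is a protease inhibitor gene of moulting. The gfp(RNAi) library had 36.0 FPKM of noah-2, 33.3 of noah-1 and 13.5 of mlt-11, closer to the library of swsn-2.2(RNAi) larvae. The cuticlin gene cut-2 was at 156 and 159 FPKM, against 236 in gfp(RNAi) larvae, with log2 ratios of -0.59 and -0.57. The authors' deposited lists hold noah-2, noah-1 and mlt-11 as higher in the library labelled as ham-3(RNAi) against gfp(RNAi). They hold cut-2 and dex-1, another gene of this list, as lower in both comparisons with gfp(RNAi).

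Known regulators of epidermal and moulting genes had 10 of 11 genes kept and 0 past 1.5-fold in any comparison. Of all genes, 1.4% to 3.38% were lower and 1.41% to 2.31% higher at that threshold. The authors' deposited lists hold bed-3 as lower in the library labelled as ham-3(RNAi), with a q of 0.0729, and elt-3 as higher in swsn-2.2(RNAi) larvae, with a q of 0.0748. The heterochronic factor gene lin-29 was at 12.1 and 12.3 FPKM, against 11.2 in gfp(RNAi) larvae. The period-related gene lin-42, whose mRNA cycles with the moults, was at 51.0 FPKM in the library labelled as ham-3(RNAi) and 37.7 in swsn-2.2(RNAi) larvae, against 46.5 in gfp(RNAi) larvae. The epidermal factor genes elt-3 (26.9 and 31.2 FPKM, against 23.5) and lin-26 (66.7 and 81.3 FPKM, against 68.9) were highest in swsn-2.2(RNAi) larvae. Of the epidermal markers, nhr-23 was listed at 0 in every library and dpy-7 in gfp(RNAi) larvae alone, where the exact 0 may be a failed estimate. Summed over the 3 epidermal markers kept of 5, FPKM was 660 in the library labelled as ham-3(RNAi) and 533 in swsn-2.2(RNAi) larvae, against 621 in gfp(RNAi) larvae, and most of each sum was sqt-3. The part of the amount of epidermis in the col values was not tested.

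**Figure D5:**
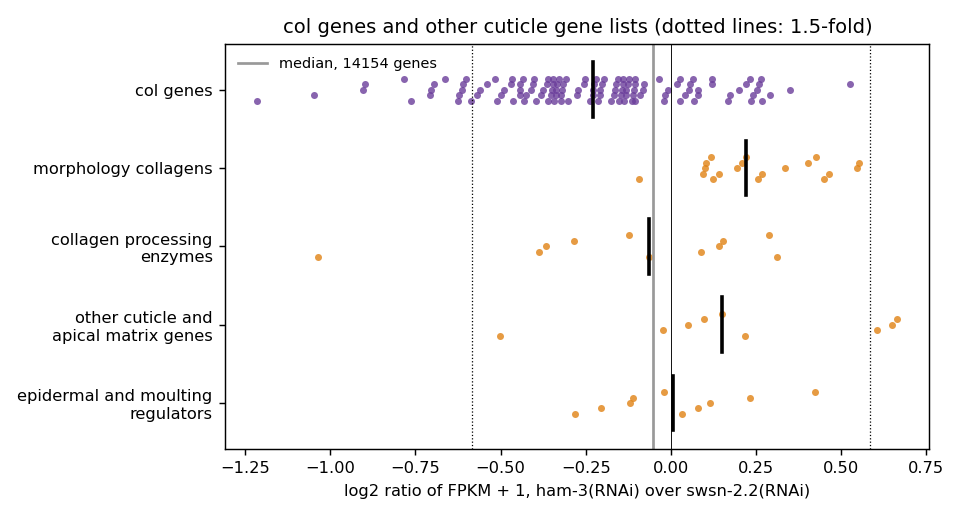
Log2 ratio of FPKM + 1 of the library labelled as ham-3(RNAi) over swsn-2.2(RNAi) (x axis) for col genes and 4 other lists (rows), 1 point per gene, with a black bar for each list's median and a grey line for the median of 14154 genes. The col genes have a median of -0.23 and the morphology collagens 0.22, and dotted lines mark 1.5-fold.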

How the data were processed

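The authors' deposited gene and transcript tables hold FPKM values made with Cufflinks, per the submitters' processing notes. A p-value and a log2 fold for every gene, made by the authors with Cuffdiff per the same notes, stand beside them. The authors' deposited lists of called genes add a q-value, and each listed gene has a p-value under 0.01 and both libraries above 0. Program versions, the aligner, the strand setting and the build are not given in the sources. A p-value of exactly 1 in the authors' deposited table was read as no test.

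From the deposited FPKM, log2 ratios of FPKM + 1 were formed between libraries, with no further scaling, which understates the differences of weak genes. Genes above 0 in all 3 libraries with a mean FPKM of at least 1 were kept (14154), and differences were counted at 1.5-fold. With 1 library per group, no p-value was computed. The files hold no fragment counts. Totals (30700000 for ham-3(RNAi) and swsn-2.2(RNAi), 19600000 for gfp(RNAi)) were estimated from steps between FPKM values up to 0.3 among genes with 1 transcript of at least 500 bp. Counting intervals at 95% (exact conditional binomial, Clopper-Pearson) use them. Coordinates are those of the files and are given for genes on the plus strand only, since for 76 of 85 members on the minus strand the listed span covers under 60% of the gene. Strand, exons and coding length come from the WBcel235 annotation.

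The members and gene lists were chosen with earlier results of these data known. Named col genes were those listed at 0 while reaching 1 FPKM elsewhere, the 10 with the highest mean, the 8 largest and 8 smallest ratios of each comparison at a mean of at least 5 FPKM, the 2 nearest each side of 1.5-fold, stage-linked genes and col-99. Other col genes were chosen after their values were seen, namely col-10, col-12, col-43, col-55, col-66, col-78, col-106, col-123, col-136, col-141, col-142, col-145, col-164, col-167, col-171 and col-182. From the other lists, the 3 genes with the largest absolute ratio were named by rule and the rest after their values were seen. Only the 1.5-fold calls of ham-3(RNAi) against gfp(RNAi) were tested on simulated libraries, which held counting error and no variation between cultures. The other steps were not tested in that way. Alternatives were other pseudocounts, filters, scalings and thresholds, the transcript table, and genes listed at 0 kept in. Python 3.11.15, pandas 2.3.3, numpy 2.4.6 and scipy 1.17.1 were used.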

Additional observations from a re-analysis of the deposited data

How the results depend on the processing

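Of 105 values recomputed under other settings, 93 stayed within 1.5 times the reported count or 0.1 of the reported median and 12 moved further. The median of swsn-2.2(RNAi) against gfp(RNAi), at -0.0026, had no stable sign: 4 settings gave values above 0 (no filter 0.02, genes with an authors' test 0.03, no pseudogenes 0.01, 1 transcript 0.04), and keeping genes listed at 0 gave 0. At 2-fold, 4 members were lower and 0 higher in the library labelled as ham-3(RNAi) against gfp(RNAi), 1 lower and 1 higher in swsn-2.2(RNAi) against gfp(RNAi), and 2 lower in the library labelled as ham-3(RNAi) against swsn-2.2(RNAi). At the same threshold 0.49% of all genes were lower and 0.30% higher in the first comparison. These shares were 0.30% and 0.38% in the second, and 0.57% and 0.23% in the third. Scaling moved both comparisons with swsn-2.2(RNAi). Centring on the median gene gave 8 lower against gfp(RNAi), and 10 lower in the library labelled as ham-3(RNAi) against swsn-2.2(RNAi). The shares of all genes were then 2.18% and 2.73%. Scaling to the upper quartile gave 9 lower against gfp(RNAi), and 10 lower and 1 higher in that direct comparison. Of all genes, 2.17% were then lower against gfp(RNAi), and 2.44% lower and 1.94% higher in the direct comparison. A pseudocount of 5 FPKM left 5 higher in swsn-2.2(RNAi) against gfp(RNAi), beside 0.71% of all genes. Keeping genes listed at 0 added col-166 as 1 higher in the direct comparison, beside 2.88% of all genes. Leaving out genes without an authors' test, pseudogenes, or genes with several transcripts, all chosen after seeing the data, moved none of the counts or medians that far. Summing near-identical copies was not run, because no protein table was used here. No paired analysis was possible because each group has 1 library, and leaving out a replicate was not possible for the same reason. Depth limits the members under 1 FPKM, whose values rest on a few fragments.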

Other observations

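The DBL-1 pathway, a TGF-beta-like signal that sets body size and acts on cuticle collagen genes, was listed as 12 genes. Of these, 10 were kept and 0 passed 1.5-fold in any of the 3 comparisons. Across these comparisons, 1.4% to 3.38% of all genes were lower and 1.41% to 2.31% higher. The authors' deposited lists hold crm-1 as higher in swsn-2.2(RNAi) larvae, with a q of 0.0799. The ligand gene dbl-1 was at 10.1 FPKM in the library labelled as ham-3(RNAi) and 10.5 in swsn-2.2(RNAi) larvae, against 9.26 in gfp(RNAi) larvae. The receptor gene sma-6 was at 9.14 and 9.79 FPKM, against 9.53. Its Smad genes sma-2 and sma-3 were at 7.37 and 11.9 FPKM in the library labelled as ham-3(RNAi), at 6.95 and 12.9 in swsn-2.2(RNAi) larvae and at 7.70 and 11.3 in gfp(RNAi) larvae. The gene sma-4 was listed at 0 in 2 of the libraries and lon-1 in all 3, and neither has a ratio.

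Of 6 collagen-related genes of basement membranes or cell surfaces, 5 were kept and 0 passed 1.5-fold in any comparison. Of all genes, 1.4% to 3.38% were lower and 1.41% to 2.31% higher at that threshold. Against gfp(RNAi), 1 of the 5 was below 0 in the library labelled as ham-3(RNAi) (median 0.08) and 4 in swsn-2.2(RNAi) larvae (median -0.17). Of all genes, 44.1% and 34.2% were below 0 there. The type IV collagen genes of basement membranes, emb-9 and let-2, were at 262 and 304 FPKM in the library labelled as ham-3(RNAi) and at 216 and 271 in swsn-2.2(RNAi) larvae, against 248 and 318 in gfp(RNAi) larvae. Their log2 ratios to gfp(RNAi) were 0.08 and -0.07 in the library labelled as ham-3(RNAi), and -0.20 and -0.23 in swsn-2.2(RNAi) larvae. Between the library labelled as ham-3(RNAi) and the library of swsn-2.2(RNAi) larvae, their log2 ratios were 0.28 and 0.17. Markers of other tissues were also read in the library labelled as ham-3(RNAi) against gfp(RNAi), with medians of 0.12 over 4 body wall muscle genes, 0.06 over 3 intestinal genes and 0.08 over 4 germline genes. In the library of swsn-2.2(RNAi) larvae against gfp(RNAi) these medians were -0.22, 0.11 and 0.03.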
